A study of Mus musculus with 6 samples.

Results

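The Wnt ligands and the receptors that bind them were examined in PDGFRα-positive cells of the embryonic mouse back, divided by a reporter of the transcription factor gene Ebf2. The members were all measured genes with a Wnt or Frizzled (Fzd) symbol and the receptor genes Lrp5, Lrp6, Ror1, Ror2, Ryk and Ptk7. These came to 35 of 22180 genes tested, of which 19 were ligands, 10 were Frizzled receptors and 6 were other receptors. The cells were sorted from the dorsal body wall of 129SV embryos at stage E14.5 that carried 1 GFP allele at Ebf2, so GFP marks cells in which that locus is active. All cells were gated as Pdgfra positive, and the 3 Ebf2(GFP)+ arrays were compared with the 3 Ebf2(GFP)- arrays. Embryos of both groups carried the same reporter allele, and the labels do not say whether a replicate is 1 embryo, a pool or a litter, so the p-values speak to the spread of these arrays alone, and that spread may be technical.

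Wnt proteins are lipid-modified signals that act over short distances. In the β-catenin branch a Wnt bridges a Frizzled and Lrp5 or Lrp6, which lets β-catenin build up and act in the nucleus with Tcf and Lef factors. In the other branches Frizzleds act with Ror1, Ror2, Ryk or Ptk7 on cell polarity and movement. In the embryonic back, Wnts of the surface ectoderm and the neural tube pattern the somites and the dermis, and β-catenin signalling in mesenchyme is known to favour dermis over fat.

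The deposited values are log2 expression levels per probe set, and a difference is always GFP-positive minus GFP-negative. A gene passed where the adjusted p (limma, Benjamini-Hochberg over all 22180 genes) was under 0.05. Array medians lay between 6.66 and 6.71, and precision is limited by there being 3 arrays a group. The files carry no detection calls, so the 40th percentile of gene means (6.78) served as a mark of dim genes, and a difference from a level below it may be too small. Ebf2 followed the sort, at 12.04, 12.04 and 11.93 in GFP-positive replicates 1, 2 and 3 and at 8.16, 8.60 and 9.21 in the GFP-negative ones. Another Ebf2 probe set, below the mark with a mean of 5.33, did not (0.03 ± 0.05 SE, limma adjusted p = 0.823). Pdgfra was at 12.90 or above on all 6 arrays, with a difference of 0.19 ± 0.06 SE (limma adjusted p = 0.178).

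The receptors changed in both directions, while the 3 ligands that passed were all lower in GFP-positive cells. Fzd8, Fzd4, Fzd5 and Ror1 rose, and Fzd9, Fzd10, Fzd6, Fzd1, Ptk7, Wnt4, Wnt2b and Wnt6 fell. The 12 members that passed limma's test were 4 higher and 8 lower of 35, where 6.49% of all genes passed in either direction, 2.65% higher and 3.84% lower. Among genes above the mark of dim genes 9.75% passed. Centring each array on its median gave the same 12 members, although the higher share of all calls went from 40.9% to 53.7%. The arrays of the groups did not overlap for 15 members, 5 with all GFP-positive arrays above and 10 with all below, against 22% of all genes (12.3% above and 9.78% below). The median difference was −0.14 over the members and 0.02 over all genes.

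**Figure D1:**
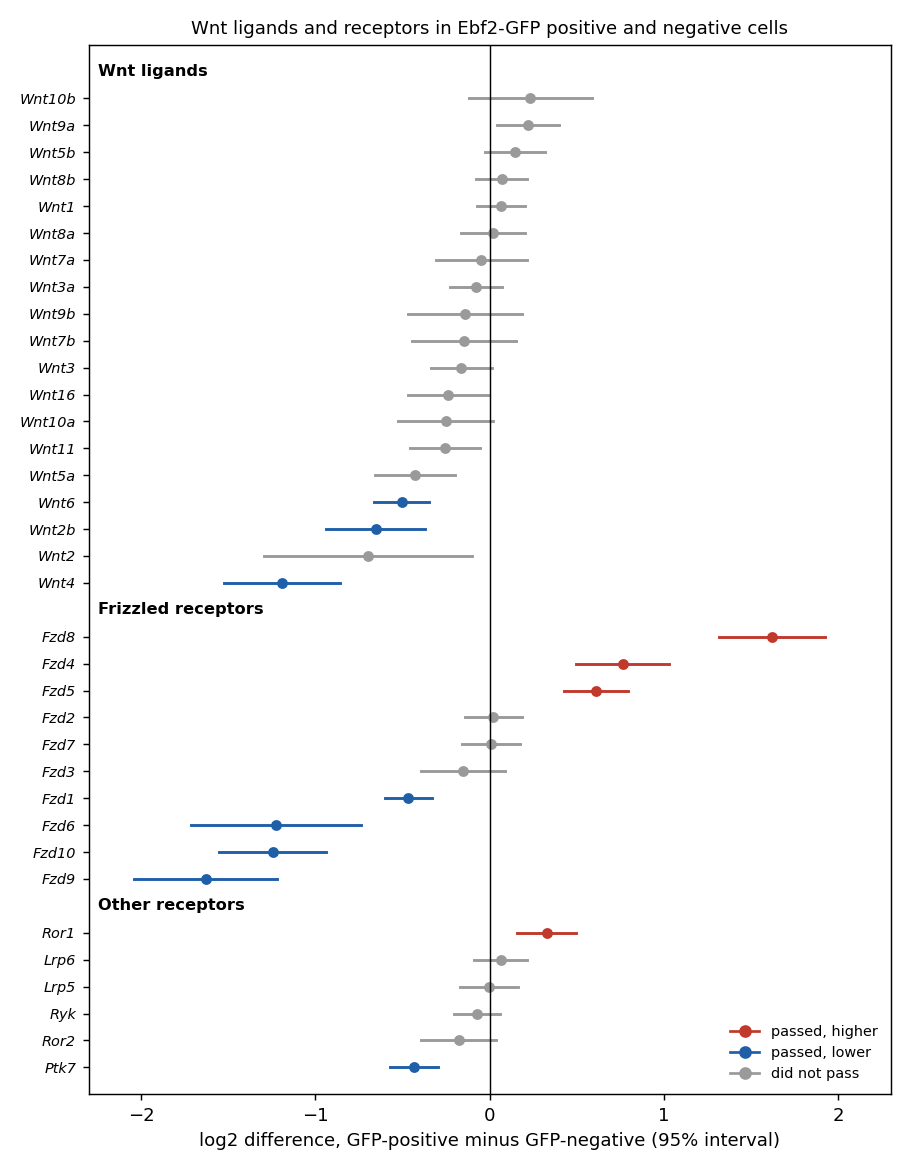
Log2 difference (GFP-positive minus GFP-negative, horizontal axis) of the 35 members with limma's 95% interval, grouped as ligands, Frizzled receptors and other receptors and ordered by size. Coloured points passed the test (adjusted p under 0.05): the Frizzleds spread from −1.63 (Fzd9) to 1.62 (Fzd8), and the ligands from −1.19 (Wnt4) to 0.23 (Wnt10b).

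Replicates carry the same numbers in both groups. Same-numbered arrays, called replicate pairs here, deviated together from their group means (r from 0.31 to 0.52 over genes). The labels state no such pairing, and the main calls, SE and intervals come from a fit without it. Values from a blocked fit, with the number as a term, appear where a call changed. In that fit 14 members passed, 4 higher and 10 lower, against 10% of all genes (4.55% higher and 5.49% lower).

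Of the 19 ligands, 3 fell, none rose and 16 did not pass (5 fell with the replicate block). So 15.8% of ligands passed, against 6.49% of all genes and 9.75% of those above the mark of dim genes. With the block 10% of all genes passed. Of the 1439 calls over all genes, 851 were lower. The ligand median was −0.15, and 8 ligands had an unadjusted p under 0.05, as had 3927 of all 22180 genes. Wnt4, a ligand of kidney, gonad and muscle development, fell most, 2.29-fold. Its log2 level was 8.78, 9.03 and 8.65 in GFP-negative replicates 1, 2 and 3 and 7.39, 7.83 and 7.66 in the GFP-positive ones. The groups were separated by 0.82, and the replicate pairs differed by −1.39, −1.20 and −0.99 (−1.19 ± 0.14 SE, limma adjusted p = 0.00500).

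Wnt2b, a ligand of limb, lung and eye development, was at 9.99, 10.02 and 10.11 in GFP-negative and 9.44, 9.13 and 9.59 in GFP-positive replicates. It was 1.57-fold lower (−0.65 ± 0.12 SE, limma adjusted p = 0.0241), with every GFP-positive array below every GFP-negative one. The call ended without GFP-negative replicate 1, 2 or 3 (adjusted p = 0.0691, 0.0829 or 0.0818) or GFP-positive replicate 1 (0.0855), and over all 15 alternatives the adjusted p ran from 0.0143 to 0.0855. Wnt6, known from surface ectoderm, where it acts on the somite epithelium, was 1.42-fold lower (−0.50 ± 0.07 SE, limma adjusted p = 0.00768). It lay at 7.02, 7.20 and 7.06 in GFP-negative and 6.61, 6.63 and 6.53 in GFP-positive replicates, the latter all below the mark of dim genes.

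Wnt4 and Wnt6 are printed here by the 250 bases before their gene start, because they are the lower ligands with the smallest p whose windows are in the table. The sequences are from RefSeq (build GRCm38.p6, 5′ to 3′), Wnt4 at chr4:137277385-137277634, plus strand, and Wnt6 at chr1:74771642-74771891, plus strand. Capitals mark CCCNNGGG, the paired half-sites that Ebf factors are known to bind, searched on both strands.
Wnt4: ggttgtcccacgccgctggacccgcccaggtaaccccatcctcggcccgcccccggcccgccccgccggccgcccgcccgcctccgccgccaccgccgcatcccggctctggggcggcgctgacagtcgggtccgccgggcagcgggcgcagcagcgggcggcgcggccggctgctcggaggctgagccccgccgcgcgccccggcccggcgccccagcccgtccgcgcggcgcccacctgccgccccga
Wnt6: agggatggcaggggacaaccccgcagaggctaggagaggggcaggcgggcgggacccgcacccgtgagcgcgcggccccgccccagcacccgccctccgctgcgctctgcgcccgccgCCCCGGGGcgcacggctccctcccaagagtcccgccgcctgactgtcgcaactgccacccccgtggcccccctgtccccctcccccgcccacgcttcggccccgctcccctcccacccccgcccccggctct
Wnt6 holds 1 match, which starts 132 bases before the gene start, and Wnt4 holds none. Both windows are rich in G and C, at 85.2% for Wnt4 and 79.6% for Wnt6, with 44 and 28 CpG pairs. Over all 32851 windows of this length in the table the medians were 52.4% and 6.

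A pair of ligands passed with the replicate block. Wnt5a, the main ligand of the Ror receptors, was at 10.81, 10.58 and 10.47 in GFP-negative and 10.28, 10.13 and 10.17 in GFP-positive replicates. Its groups did not overlap, and its difference of −0.43 ± 0.10 SE lay at the threshold (limma adjusted p = 0.0504, or 0.0186 with the block). It passed in 6 of 15 alternatives, in which the adjusted p ran from 0.0186 to 0.175. Wnt2, a ligand of lung and vessel development, was at 8.91, 9.43 and 9.65 in GFP-negative and 8.41, 8.39 and 9.09 in GFP-positive replicates. These overlapped, yet each GFP-positive replicate was below its GFP-negative partner, at −0.50, −1.04 and −0.55. The difference of −0.70 ± 0.25 SE did not pass limma's test (adjusted p = 0.204) and passed with the block (0.0259), the only 1 of 15 alternatives in which it did, over a range of 0.0259 to 0.48.

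The other 14 ligands passed in neither fit, with differences from −0.26 (Wnt11) to 0.23 (Wnt10b), and for 12 of them the 95% interval lay within 0.5 of 0. Wnt11, which guides cell movement, had arrays that did not overlap, with an interval of −0.46 to −0.05 (limma adjusted p = 0.165). Wnt9a, a ligand of joint formation, did not overlap in the other direction, with an interval of 0.04 to 0.40 (adjusted p = 0.174), and passed without GFP-negative replicate 2 (0.0461, in a range of 0.0461 to 0.402). Wnt10b, whose protein is known to hold back adipogenesis, was at 6.37, 6.75 and 6.88 in GFP-negative and 6.79, 6.81 and 7.10 in GFP-positive replicates. Its interval of −0.12 to 0.59 was among those not within 0.5 of 0 (limma adjusted p = 0.504). The GFP-negative mean of Wnt10b, 6.66, was below the mark of dim genes.

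Wnt3, Wnt3a, Wnt7a, Wnt8a, Wnt8b and Wnt16 were below the mark of dim genes in both groups, and none of these 6 passed. Wnt7b was below it in GFP-positive cells alone, with a mean of 6.65. Wnt1 and Wnt3a, signals of the dorsal neural tube, had intervals of −0.07 to 0.20 and −0.23 to 0.07. Wnt5b, closely related to Wnt5a, was at 0.15 ± 0.07 SE (limma adjusted p = 0.372), with an interval of −0.03 to 0.32 that includes 0. There were 4 pairs of members with no coding gene between them in RefSeq, and 1 of their 8 genes passed. Of all genes 6.49% passed, and 9.75% of those above the mark, so this count is not read as a result about neighbours. That gene was Wnt6, which fell by 0.50. Its neighbour Wnt10a, a ligand of hair and tooth development, had a difference of −0.25 (limma adjusted p = 0.319). The Wnt10a interval of −0.52 to 0.02 includes the difference of Wnt6.

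The Frizzled receptors held the largest differences of the set. Of 10 members, 3 rose, 4 fell and 3 did not pass, and the 7 that passed also passed with the replicate block. By sequence family, Fzd5 and Fzd8 both rose, and Fzd9 and Fzd10 both fell. Of Fzd3 and Fzd6, Fzd6 fell, and of Fzd1, Fzd2 and Fzd7, Fzd1 fell. Fzd4 rose, unlike Fzd9 and Fzd10, with which it is often grouped.

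Fzd8 rose 3.08-fold, from 9.68, 10.05 and 9.75 in GFP-negative to 11.62, 11.47 and 11.26 in GFP-positive replicates. The nearest arrays of the groups were 1.21 apart, and the replicate pairs differed by 1.94, 1.42 and 1.50 (1.62 ± 0.13 SE, limma adjusted p = 0.00121). Its relative Fzd5, a receptor of eye and gut development, rose 1.53-fold, from 7.58, 7.82 and 7.71 to 8.35, 8.35 and 8.23 (0.61 ± 0.08 SE, adjusted p = 0.00689). Every GFP-positive array exceeded every GFP-negative one for both genes. Fzd4, the receptor of the vascular signal Norrin as well as of Wnts, rose 1.70-fold, from 10.94, 10.88 and 11.21 to 11.69, 11.69 and 11.94 (0.76 ± 0.11 SE, limma adjusted p = 0.0114). The replicate pairs of Fzd4 were close to each other, at 0.75, 0.81 and 0.72.

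Fzd9 fell 3.09-fold. It was at 9.08, 9.09 and 8.64 in GFP-negative and 7.30, 7.58 and 7.05 in GFP-positive replicates (−1.63 ± 0.17 SE, limma adjusted p = 0.00345). The groups were 1.06 apart at their nearest arrays, and the pairs differed by −1.79, −1.52 and −1.59. Fzd9 is known from neural and bone-forming cells, and Fzd10 from the dorsal neural tube and limb. Fzd10 was at 6.94, 7.08 and 6.58 in GFP-negative and 5.70, 5.61 and 5.57 in GFP-positive replicates, 2.37-fold lower (−1.24 ± 0.13 SE, limma adjusted p = 0.00323). Its GFP-positive arrays were all below the mark of dim genes, and its GFP-negative mean of 6.87 was just above it.

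Fzd6, a receptor of planar cell polarity in skin and hair, was 2.34-fold lower (−1.23 ± 0.20 SE, limma adjusted p = 0.0187). It was at 8.37, 8.77 and 8.59 in GFP-negative and 6.89, 7.57 and 7.59 in GFP-positive replicates, so that GFP-positive replicate 1 was the lowest of the 6. The call ended without GFP-negative replicate 2 (adjusted p = 0.0761), GFP-negative replicate 3 (0.0639) or GFP-positive replicate 2 (0.0517), and the adjusted p ran from 0.00372 to 0.0761 over 15 alternatives. Fzd1 fell 1.38-fold with a narrow spread, from 10.52, 10.58 and 10.66 to 10.13, 10.09 and 10.14 (−0.47 ± 0.06 SE, limma adjusted p = 0.00550). Its relatives Fzd2 and Fzd7 differed by 0.02 and 0.01, with intervals of −0.14 to 0.18 and −0.16 to 0.18 that leave out the difference of Fzd1. Fzd3, the partner of Fzd6 in axon guidance and planar polarity, had an interval of −0.39 to 0.09 (limma adjusted p = 0.530).

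Fzd4, Fzd5 and Fzd9 are printed in the same way, as receptors that changed in opposite directions and whose windows are in the table. They lie at chr7:89404116-89404365, plus strand, at chr1:64737751-64738000, minus strand, and at chr5:135251048-135251297, minus strand.
Fzd4: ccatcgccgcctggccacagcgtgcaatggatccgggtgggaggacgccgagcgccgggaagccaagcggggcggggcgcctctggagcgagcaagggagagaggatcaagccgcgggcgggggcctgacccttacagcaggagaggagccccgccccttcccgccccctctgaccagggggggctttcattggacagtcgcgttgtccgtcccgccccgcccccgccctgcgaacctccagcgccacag
Fzd5: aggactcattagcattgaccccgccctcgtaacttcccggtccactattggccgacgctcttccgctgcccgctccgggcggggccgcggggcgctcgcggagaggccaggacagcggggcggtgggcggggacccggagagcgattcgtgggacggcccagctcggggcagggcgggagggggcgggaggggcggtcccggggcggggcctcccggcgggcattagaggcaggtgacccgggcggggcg
Fzd9: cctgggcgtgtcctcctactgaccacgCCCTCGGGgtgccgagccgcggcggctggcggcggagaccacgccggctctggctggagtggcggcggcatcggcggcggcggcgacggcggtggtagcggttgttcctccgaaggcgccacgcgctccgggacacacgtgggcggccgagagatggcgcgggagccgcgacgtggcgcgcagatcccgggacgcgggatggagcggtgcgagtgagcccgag
Fzd9 holds 1 match to CCCNNGGG, which starts 223 bases before the gene start, and Fzd4 and Fzd5 hold none. All 3 windows are rich in G and C, at 72.8%, 76.4% and 76.4%, with 25, 32 and 42 CpG pairs. Windows were found for 25 of the 35 members, 28 windows in all. CCCNNGGG was in 7 of the 28 windows and in 2 of the 10 windows of members that passed (Fzd9 and Wnt6), against 11.8% of all windows. CTTTGAT, a site of Tcf and Lef factors searched on both strands, was in 2 of the 28 and in none of those 10, against 3.21% of all windows. The 10 windows had a median of 30 CpG pairs, from 8 (Ror1) to 44 (Wnt4), and of 76.4% G and C. Over all windows these medians were 6 and 52.4%. The motif shares were not matched for this content, so they cannot be read as an excess or a lack of sites.

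**Figure D2:**
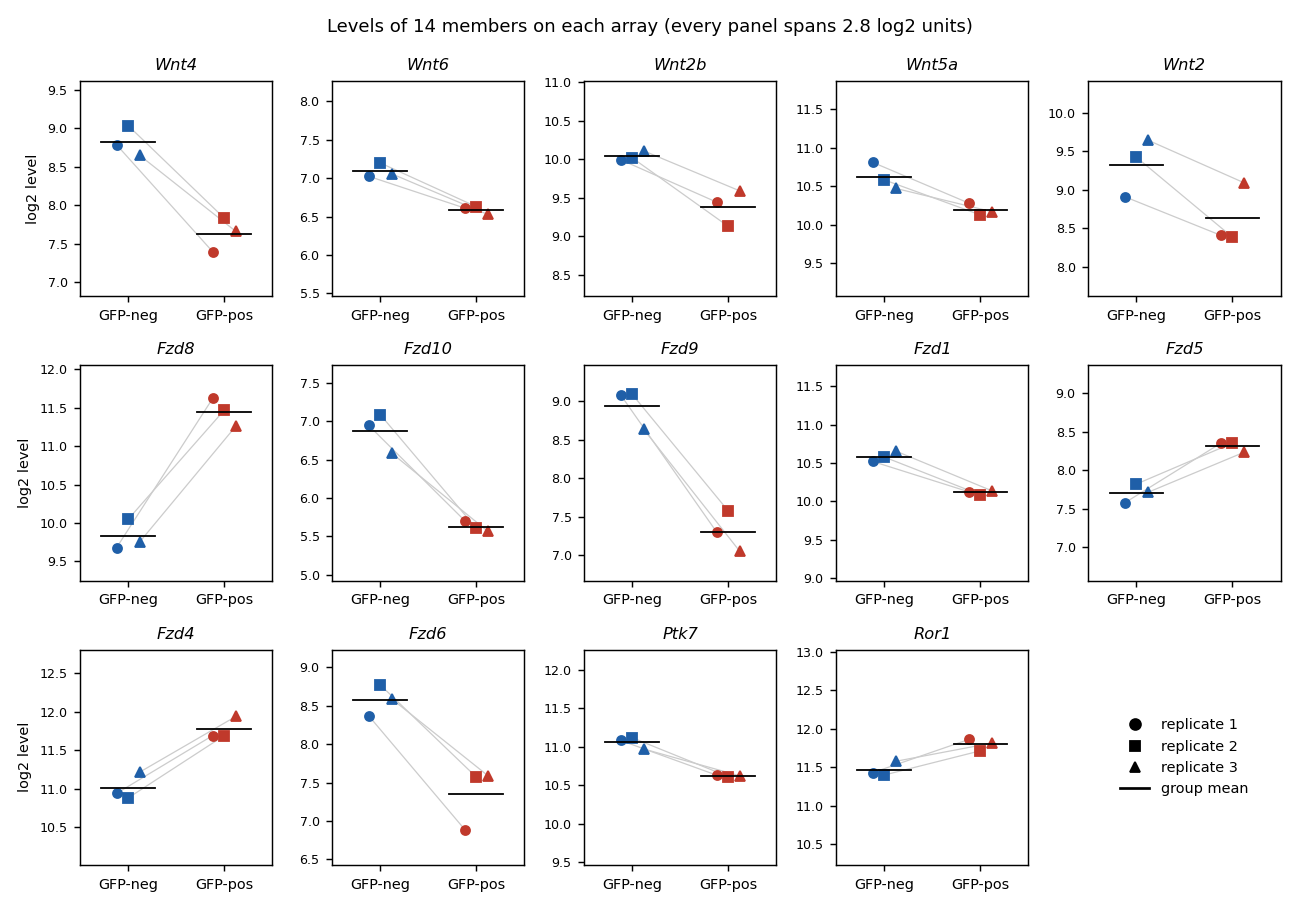
Log2 level (vertical axis, the same span in every panel) of 14 members on each GFP-negative (blue) and GFP-positive (red) array, with group means as black bars and grey lines joining same-numbered replicates. The groups overlap for Wnt2 alone, in which each pair still falls.

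Among the other receptors, the β-catenin co-receptors did not pass. Lrp5 was at 10.96, 10.86 and 10.83 in GFP-negative and 10.89, 10.97 and 10.78 in GFP-positive replicates, and its interval ran from −0.17 to 0.16 (limma adjusted p = 0.984). Lrp6 had an interval of −0.09 to 0.21 (adjusted p = 0.689), and a second, dimmer probe set of Lrp6 differed by 0.12 ± 0.08 SE. It was the only member with more than 1 probe set. Ryk, an atypical tyrosine kinase that binds Wnts, had an interval of −0.21 to 0.06 (adjusted p = 0.581).

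Ptk7, a planar polarity receptor with an inactive kinase domain, fell 1.35-fold (−0.44 ± 0.06 SE, limma adjusted p = 0.00768). It was at 11.08, 11.12 and 10.97 in GFP-negative and 10.63, 10.61 and 10.62 in GFP-positive replicates, and the groups were 0.34 apart. Of the paired receptors of Wnt5a, Ror1 passed and Ror2 did not. Ror1 was 1.26-fold higher, from 11.43, 11.40 and 11.58 to 11.86, 11.71 and 11.81 (0.33 ± 0.07 SE, limma adjusted p = 0.0454). It was close to the threshold: its call ended with array weights (0.0623) and without GFP-negative replicate 1 (0.116) or 2 (0.131) or GFP-positive replicate 1 (0.161), 2 (0.0840) or 3 (0.147), in a range of 0.0262 to 0.161. Ror2, which is mutated in skeletal dysplasias, was at 11.77, 11.62 and 11.42 in GFP-negative and 11.43, 11.42 and 11.42 in GFP-positive replicates (−0.18, interval −0.39 to 0.04, adjusted p = 0.389).

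The rest of the pathway was read from 6 lists of 90 entries, of which 86 were measured. In these lists 7 genes rose, 21 fell and 58 did not pass. Of 7 genes of Wnt lipidation and secretion, 1 passed: Wls, the carrier that takes Wnts to the cell surface, fell 1.40-fold (−0.48 ± 0.06 SE, limma adjusted p = 0.00603). Porcn, the enzyme that attaches the lipid, had a difference of 0.01 ± 0.06 SE (adjusted p = 0.942). Median centring added 1 higher gene to this list. None of 19 measured genes of β-catenin transduction passed limma's test (1 at an unadjusted p under 0.05, 0 with the block), and their differences ran from −0.05 to 0.18. With a variance trend 1 of them was higher.

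Outside the cell the lists were mixed. Of 23 inhibitors 3 rose and 8 fell (median −0.09). The higher ones were Shisa3 and Shisa2 (1.31 and 1.08), which hold Frizzleds inside the cell, and Sfrp4, a secreted Frizzled-like decoy (1.08). Of the lower ones Apcdd1, a membrane protein that binds Wnts, was at −1.76, Dkk1, which blocks Lrp5 and Lrp6, at −2.11 and the decoy Sfrp5 at −1.39. Dkk1 and Sfrp5 were below the mark of dim genes in GFP-positive cells. Of 11 R-spondins, Norrin genes, their receptors and the co-receptors Adgra2 and Reck, 2 rose and 4 fell. With the block 4 rose and 4 fell, which adds Lgr6 and Lgr4 as higher (limma adjusted p = 0.0319 and 0.0486). Their relative Lgr5 fell in both fits (−0.88 ± 0.15 SE, limma adjusted p = 0.0209, or 0.0253 with the block). In this list 1 gene rose without GFP-negative replicate 1 or 2 or any one GFP-positive replicate. The enhancer Rspo3 (0.76 ± 0.13 SE, limma adjusted p = 0.0203) and Rspo2 (1.14 ± 0.10 SE, adjusted p = 0.00205) rose, and Rspo1 fell (−1.45 ± 0.17 SE, adjusted p = 0.00483). Ndp, the Norrin gene, and Tspan12, a partner of Fzd4, had differences of −0.23 ± 0.13 SE and −0.31 ± 0.16 SE (adjusted p = 0.449 and 0.414). Adgra2 and Reck, co-receptors of Wnt7a and Wnt7b, fell (−0.54 and −0.56, limma adjusted p = 0.00343 and 0.00450), while Wnt7a and Wnt7b did not pass (−0.05 ± 0.11 SE and −0.15 ± 0.12 SE).

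Of 13 planar polarity genes, Daam1, a formin that acts with Dishevelled, rose (0.41 ± 0.08 SE, limma adjusted p = 0.0254), and none fell. No gene of this list rose without GFP-positive replicate 1, 2 or 3, 3 rose after median centring, and 1 fell without GFP-negative replicate 3. Vangl1, a core membrane protein of polarity, passed with the block (0.62 ± 0.14 SE, adjusted p = 0.0518, or 0.0198 with the block). Of 13 Tcf and Lef factors and targets, 8 fell and 1 rose (median −0.80). Tnfrsf19, a β-catenin target, fell most (−2.27 ± 0.11 SE, limma adjusted p = 0.000324). The homeobox gene Msx2 (−0.92) and the feedback inhibitor Axin2 (−1.21) fell too, with Msx2 below the mark of dim genes in GFP-positive cells. The factor genes did not share a direction: Tcf7l2 rose (0.80), Lef1 fell (−2.05 ± 0.23 SE, limma adjusted p = 0.00462) and Tcf7l1 did not pass (0.16).

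**Figure D3:**
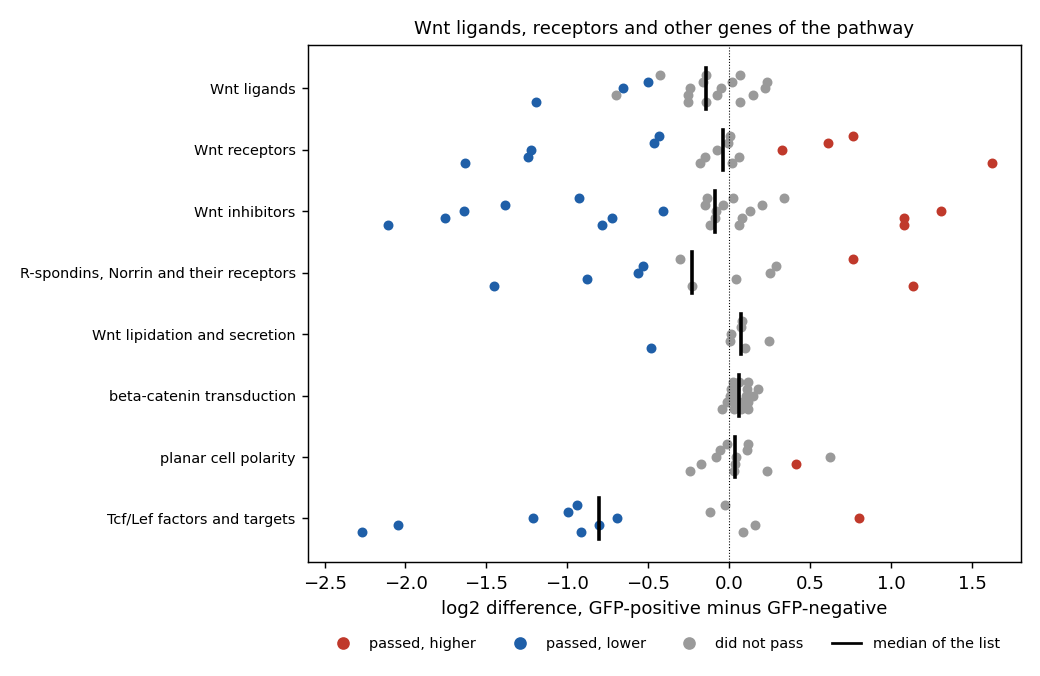
Log2 difference (GFP-positive minus GFP-negative, horizontal axis) of each gene in the ligand, receptor and 6 further pathway lists, with list medians as black bars. Tcf/Lef factors and targets lie mostly below 0 (median −0.80), and β-catenin transduction genes lie between −0.05 and 0.18.

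Markers of other cells moved with the groups in the same arrays. Over all genes 3.84% were lower, or 5.49% with the replicate block. All 16 macrophage genes and all 14 cartilage genes fell. So did 6 of 9 genes of dermis and dermal condensate, 4 of 6 mural genes and 2 of 5 Schwann and neural crest genes. Among the lower dermis genes, Dkk1 and Lef1 are also in the Wnt pathway lists above, so those lists are not separate. With the replicate block 3 mural genes fell, since Tagln no longer passed (limma adjusted p = 0.0441, or 0.0524 with the block). The mean log2 level of the macrophage list ran from 9.27 to 10.21 in GFP-negative and from 7.08 to 8.05 in GFP-positive arrays (log2 of the summed levels 13.91 to 14.84 and 11.42 to 12.48), and Cd14, Ptprc, Fcgr1 and Aif1 were below the mark of dim genes in GFP-positive cells. For cartilage the mean ran from 10.37 to 10.61 and from 8.90 to 9.20 (log2 summed 14.63 to 14.92 and 13.17 to 13.40), with no gene below the mark. For dermis it ran from 9.67 to 9.89 and from 8.80 to 8.96 (log2 summed 14.66 to 14.70 and 13.94 to 14.29), with Sox2, Prdm1 and Dkk1 below the mark in GFP-positive cells. Mural genes ran from 9.48 to 9.61 and from 9.05 to 9.10 (log2 summed 12.75 to 12.85 and 12.32 to 12.39), and Schwann genes from 8.65 to 8.99 and from 7.98 to 8.24 (12.16 to 12.53 and 10.72 to 11.22), with none below the mark.

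The part of these cells in the lower ligands and receptors was not tested. Fewer cells of a type and less RNA per cell cannot be told apart in such sorted bulk samples. Of 9 epithelial genes, relevant to ligands of the ectoderm, 1 fell, Cdh1 (−1.09 ± 0.09 SE, limma adjusted p = 0.00161). Krt15 and Trp63 were below the mark in both groups, Epcam in GFP-negative and Perp in GFP-positive cells, and the list's log2 summed level ran from 10.35 to 10.51 in GFP-negative and 10.15 to 10.34 in GFP-positive arrays. Of 8 neuronal, 8 endothelial and 9 skeletal muscle genes, 1 rose and 1 fell, 1 rose and 1 fell, and 1 rose. The replicate block added Nefl (0.32, limma adjusted p = 0.0327 with the block) and Snap25 (−0.51, 0.00727) to the neuronal calls and Pecam1 (−0.38, 0.0407) to the endothelial ones. It also added Acta1 (0.42, 0.0242) to the muscle calls and Krt18 (0.34, 0.0413) to the epithelial ones. Among 9 mesenchymal fibroblast genes 2 fell, Thy1 (−1.95 ± 0.08 SE, limma adjusted p = 0.000276) and Lum, and 7 did not pass.

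**Figure D4:**
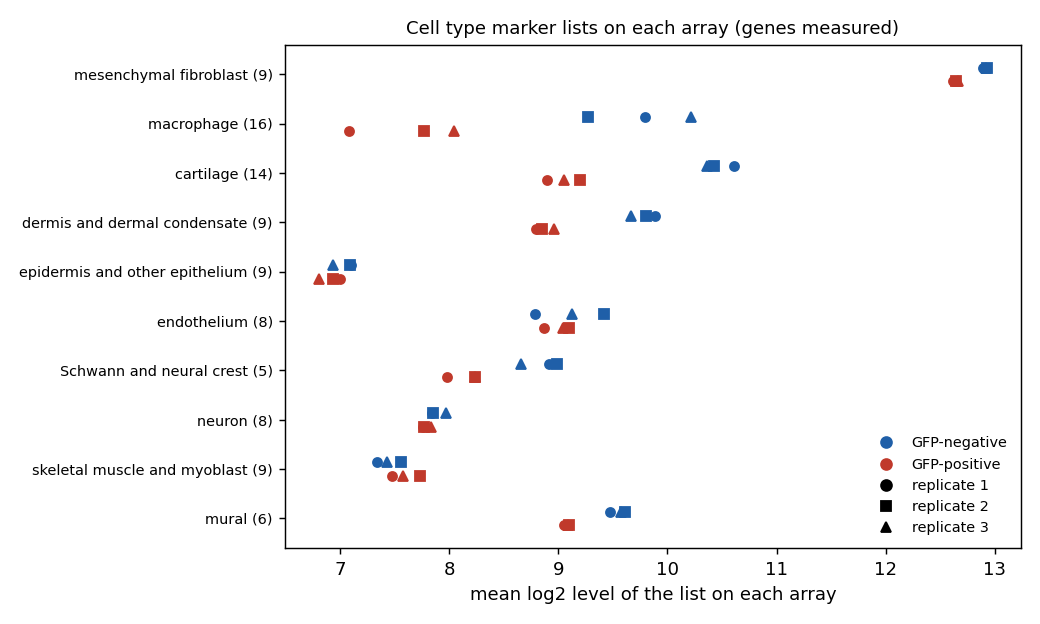
Mean log2 level (horizontal axis) of each cell type marker list on each GFP-negative (blue) and GFP-positive (red) array, with marker shapes for replicates. The macrophage list lies at 9.27 or above in GFP-negative and at 8.05 or below in GFP-positive arrays, and the mesenchymal list lies above 12.6 in both.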

How the data were processed

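Each of the 6 sorted samples was hybridised to 1 Affymetrix array. The authors deposited log2 levels per probe set. RMA and limma are named in the submitters' processing notes, with versions and filters not given in the sources used here. Of 41345 probe sets, 23521 list 1 gene in the platform table, 1814 several and 16010 none. Only the first kind was used, with symbols updated by gene identifier through RefSeq (GRCm38.p6, matched for 35 of 35 members). Where a gene had several probe sets, the one with the highest mean over the 6 arrays was kept. RMA forces a shared distribution on all arrays and hides any change common to most genes. Values on at least 2 arrays of a group were identical in every deposited digit for 16.3% of genes (Fzd4, Fzd5, Wnt3 and Wnt3a among the members), which narrows their spread.

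All 22180 genes were fitted with lmFit and eBayes (limma 3.58.1, R 4.3.3) without a filter or block. Errors beside differences are moderated SE, and intervals are 95%. The fit was tried on simulated data with independent noise on each array. Such data lack the shared deviations of same-numbered arrays, so the trial does not speak to them. Every member is accounted for, with values by array for those that passed, passed with the replicate block or differed by at least 0.3. Up to 3 genes per direction were named from each pathway list. Others (Porcn, Ndp, Tspan12, Vangl1, Lgr4, Lgr5, Lgr6, Lef1 and Tcf7l1) were chosen after their values were seen. So were the marker genes whose call the block changed and the neuronal, endothelial and muscle genes that passed. The members and lists were chosen with earlier results of these data known. Arrays of a group correlated at 0.9951 to 0.9969 over genes, those of different groups at 0.9845 to 0.9911, and no 2 arrays were identical. Same-numbered arrays correlated in their deviations at 0.314 to 0.519 and differently numbered ones at −0.384 to −0.024. Such deviations cancel within a group, so these values depend on each other. The promoter table held 25 members, and the other 10 were not searched.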

Additional observations from a re-analysis of the deposited data

How the results depend on the processing

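Tried were a replicate block, array weights, a trended or robust variance prior, median centring, quantile normalization, a filter on dim genes, other handling of several probe sets, a stricter threshold and fits without each array. The 12 members that passed kept their sign in every one of them in which they were measured. The number of higher members was 3 to 4 and of lower members 6 to 8 with 1 array left out. At an adjusted p under 0.01, 2 members were higher and 6 lower, and 539 of all genes passed. With the replicate block 2228 of all genes passed in place of 1439, and with 1 array left out 629 to 1067. Besides Wnt5a and Wnt2, the block changed no call of a member, and its changed calls in the other lists are given with them. Leaving out dim probe sets removed Fzd10, which was then not tested. In the other pathway lists 11 genes were higher after median centring in place of 7, and 5 to 7 were higher and 18 to 21 lower with 1 array left out.

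Signs turned only for 5 members that passed in no setting, and the cause was not tested. With 1 array left out Fzd2 ran from −0.0238 to 0.0676, Fzd7 from −0.0429 to 0.0693, Lrp5 from −0.0486 to 0.0443, Wnt7a from −0.139 to 0.0565 and Wnt8a from −0.0340 to 0.0744. With quantile normalization Fzd2 was at −0.0011 and Fzd7 at −0.0093. Lrp5 was at 0.0515 after median centring and 0.0107 with array weights, and Wnt7a was at 0.0069 after median centring. With 3 arrays a group, differences as small as those of Wnt11 and Wnt9a were near the limit that the spread sets. Levels below the mark of dim genes limit what can be said of 6 ligands in both groups. The same holds for Wnt6, Wnt7b and Wnt10b in 1 group.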

Other observations

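The noncoding RNA gene Fzd10os, which neighbours Fzd10 in RefSeq and was chosen after its values were seen, was lower together with it. Its log2 level was 8.36, 8.17 and 7.92 in GFP-negative and 6.73, 6.75 and 6.76 in GFP-positive replicates. This is a 2.64-fold difference (−1.40 ± 0.11 SE, limma adjusted p = 0.00116), and the GFP-positive arrays were all below the mark of dim genes. Whether the probe sets of these neighbours separate the strands is not given in the sources used here.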
